A study of Peromyscus polionotus with 11 samples.

Results

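Genes of myelin, and of the oligodendrocytes that make it, were followed in 2 brain nuclei of Peromyscus polionotus, the oldfield mouse. They are Mbp, Mobp, Mal, Cnp, Mag, Mog, Cldn11, Ugt8a and Olig1. All probe sets whose only gene symbol in the platform annotation is one of these were taken. This gave 22 of the 22626 probe sets tested, for 9 of 12393 named genes. Mbp had 8 probe sets, Mobp and Cnp 3 each, Mal and Ugt8a 2 each, and Mog, Mag, Cldn11 and Olig1 1 each. None of the 22 was kept or left out on its values once the genes were chosen. The genes themselves were chosen with earlier results of these data known. The brightest probe set of a gene, described first below, was the one with the highest mean over all arrays, and so was picked on its level.

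Total RNA from micropunches was hybridised to 11 arrays with probes designed for the house mouse. Those of the medial preoptic area gave 3 long-day samples (arrays 1 to 3) and 3 short-day samples (arrays 4 to 6). Those of the bed nucleus of the stria terminalis gave 3 long-day samples (arrays 1 to 3) and 2 short-day samples (arrays 4 and 5). The series describes the samples within a nucleus as independent. The labels name neither the age and sex of the mice nor the hours of light, nor do they say whether a sample pooled animals. The series asks about an effect of photoperiod, the daily hours of light, on transcripts in these nuclei, both of which take part in social and reproductive behaviour.

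Oligodendrocytes wrap axons in a membrane rich in cholesterol and galactosylceramide. Basic protein of myelin, encoded by Mbp, seals the inner faces of that membrane into compact layers, while other proteins hold the inner and outer edges of the sheath. The preoptic area and the bed nucleus are grey matter crossed by thin bundles of myelinated fibres, and large tracts such as the anterior commissure run close to both. In punches of whole tissue, fewer cells of a type and less RNA per cell cannot be told apart.

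Levels are linear probe set intensities, and the median of every array was 19. Because the probes match another species, levels were not compared between genes. Within a gene they were compared to pick the brightest probe set, and each level was set against the array median. Of the 22 probe sets, 11 had a mean above 19, and 7 read above 19 on all 11 arrays. These 7 were 1 each of Mbp, Mal, Mog, Ugt8a and Olig1 and 2 of Cnp. Mag and Cldn11 had no array above 19, so their values lie where 1 intensity unit is 0.07 or more on the log2 scale. Of the other genes used as a check on the tissue, the neuronal Snap25 read 648 to 893. The neuropeptide gene Gal read 93 to 122 in the preoptic area and 54 to 80 in the bed nucleus. Esr1, an oestrogen receptor gene known from both nuclei in rodents, read 9 to 14 and so was below the array median on all arrays. On the first principal component of all probe sets, short-day preoptic array 6 lay at -31.2. At the other end, long-day bed nucleus arrays 1, 2 and 3 lay at 25.4, 19.3 and 7.57. The remaining arrays, with both short-day bed nucleus arrays, lay between -6.63 and 1.98.

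No member probe set passed an adjusted p of 0.05 in any comparison with limma. Between short and long days in the preoptic area 0 of 22 passed, and 0% of all probe sets did. In the bed nucleus 0 of 22 passed, against 0.0442% of all. Between the nuclei 0 of 22 passed, against 1.03% of all. For the difference between the day length effects 0 of 22 passed, against 0% of all. A p that misses the threshold does not show that levels were equal. At an unadjusted p under 0.05 the member counts were 0, 4, 7 and 3 in the same order. These are 0%, 18.2%, 31.8% and 13.6% of the 22, beside 3.5%, 12.7%, 11.9% and 8.34% of all probe sets. The genes were chosen with earlier results of these data known, so these shares are no test of them. Between the nuclei, 5 of the 7, of Mobp, Cnp, Mbp, Cldn11 and Ugt8a, had higher means in the bed nucleus. The other 2, both of Mbp, had lower means there. The plot of levels by group shows the brightest probe set of each gene, which is the one described first for each gene.

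**Figure D1:**
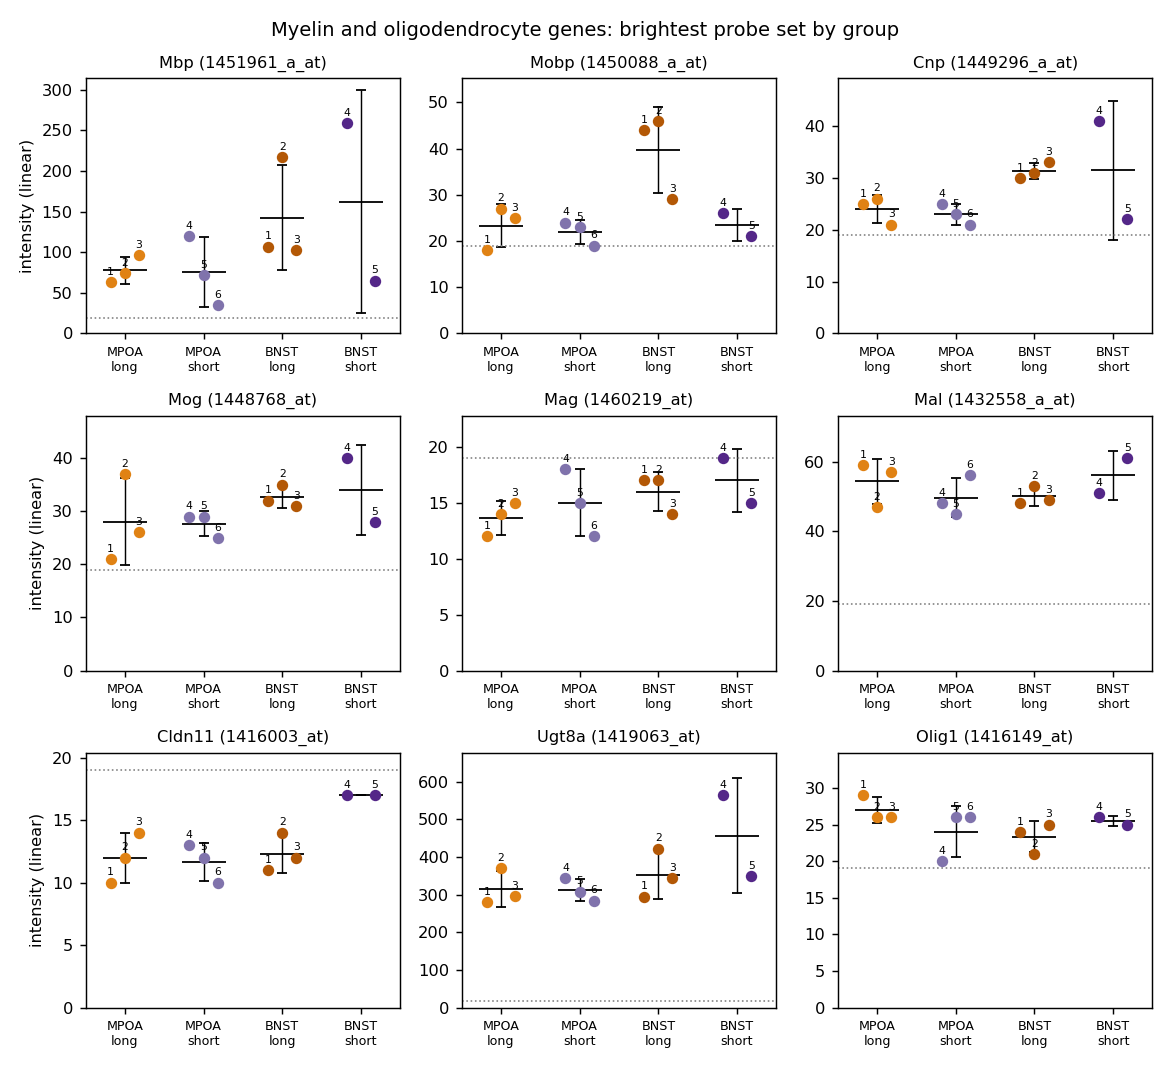
Linear intensity (y axes from 0, different in each panel) of the brightest probe set of each gene in the 4 groups. MPOA is the medial preoptic area and BNST the bed nucleus of the stria terminalis. Each point is 1 array with its sample number, the horizontal line is the group mean, the bar is 1 SD, and the dotted line is the array median of 19. For Mbp, bed nucleus arrays 2 and 4 stand at 217 and 259, above all preoptic arrays, while array 5 is at 65.

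Mbp encodes the basic protein without which central myelin does not compact. Its brightest probe set, 1451961_a_at, read 63, 74 and 96 in the long-day and 120, 72 and 35 in the short-day preoptic area. The bed nucleus read 107, 217 and 103 in long days and 259 and 65 in short days. The 2 short-day bed nucleus arrays thus included the highest value of the 11 and a value near the bottom, and short-day preoptic array 6 was the lowest. The group means were 77.7 ± 16.8 (SD, n = 3) and 75.7 ± 42.6 (n = 3) in the preoptic area. They were 142 ± 64.7 (n = 3) and 162 ± 137 (n = 2) in the bed nucleus. In the order of these means, neighbouring groups overlapped except the long-day groups of the nuclei, whose difference did not pass (0.81 ± 0.41 on the log2 scale, adjusted p = 0.496, limma). Short minus long days was -0.19 ± 0.41 on the log2 scale (SE) in the preoptic area and -0.04 ± 0.45 in the bed nucleus. The 95% interval ran from -1.03 to 0.66 in the preoptic area and from -0.99 to 0.90 in the bed nucleus.

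The bed nucleus minus the preoptic area was 0.88 ± 0.30 for this Mbp probe set, 1.84-fold, and did not pass (adjusted p = 0.211, limma). Its value was 0.95 ± 0.45 in short days alone, where the groups overlapped (adjusted p = 0.480, limma). Leaving out short-day bed nucleus array 5 gave 1.38 and an adjusted p of 0.0474 (limma), and leaving out array 4 gave 0.38 (adjusted p = 0.674, limma). Leaving out preoptic array 6, the lowest on the first component, gave 0.64.

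The other 7 Mbp probe sets had values between -0.36 and 0.12 between the nuclei. Their mean levels lay between 12.5 and 23.2, near or under the array median. Between the nuclei, 1456228_x_at was at -0.36 ± 0.16 and 1436201_x_at at -0.32 ± 0.15, in the opposite direction to the brightest (adjusted p = 0.361 and 0.410, limma). The ending of these names marks probes that may also match other transcripts. Both read highest on long-day preoptic array 1, 1456228_x_at at 36 and 1436201_x_at at 34. The remaining 5 lay between -0.21 and 0.12. Of these, 1433532_a_at was at 0.35 ± 0.16 in short days in the bed nucleus (adjusted p = 0.366, limma), with levels of 14, 15 and 11 against 19 and 15.

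Mobp encodes a small basic protein that, like the Mbp product, lies between the inner faces of compact myelin. Its brightest probe set, 1450088_a_at, read 18, 27 and 25 in the long-day and 24, 23 and 19 in the short-day preoptic area. Bed nucleus arrays read 44, 46 and 29 in long days and 26 and 21 in short days. The long-day bed nucleus was therefore above all other groups without overlap, and the other 3 groups overlapped. Short minus long days in the bed nucleus was -0.73 ± 0.20 (95% interval -1.15 to -0.31, adjusted p = 0.137, limma). This was the member with the smallest p for day length. Its 16 alternatives kept the direction, from -0.945 to -0.58, and none passed. Of these, only quantile normalization and leaving out a bed nucleus array could move the value appreciably. The other settings left the bed nucleus group means as they were, or nearly so, and could not turn the direction.

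In the preoptic area the same Mobp probe set was at -0.07 ± 0.18. The difference between the 2 day length effects was -0.66 ± 0.27 and did not pass (adjusted p = 0.549, limma). Between the nuclei the value was 0.43 ± 0.14 (adjusted p = 0.161, limma). With long days alone it was 0.76 ± 0.18 (adjusted p = 0.112, limma), and with short days alone 0.09 ± 0.20 (adjusted p = 0.924, limma). The further probe sets, 1433785_at and 1421010_at, had means of 15.1 and 14.9, below the array median. They were at 0.03 and 0.11 between short and long days in the bed nucleus, and did not share the direction of the brightest.

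Mal encodes a proteolipid that sorts membrane lipids and proteins to myelin. Its brightest probe set, 1432558_a_at, read 59, 47 and 57 in the long-day and 48, 45 and 56 in the short-day preoptic area. The bed nucleus gave 48, 53 and 49 in long days and 51 and 61 in short days. All 4 groups overlapped, and the value between the nuclei was 0.03 ± 0.10, with a 95% interval of -0.18 to 0.24. For day length (short minus long) it was -0.13 ± 0.14 in the preoptic area and 0.16 ± 0.15 in the bed nucleus. This probe set varied little, with 1.36-fold between its highest and lowest arrays, whereas Mbp 1451961_a_at spanned 7.4-fold. The other Mal probe set, 1417275_at, had a mean of 14.3 and gave 0.12 ± 0.12 between the nuclei.

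Cnp encodes a phosphodiesterase of the cytoplasmic channels in the myelin sheath. Its brightest probe set, 1449296_a_at, read 25, 26 and 21 in the long-day and 25, 23 and 21 in the short-day preoptic area. Bed nucleus values were 30, 31 and 33 in long days and 41 and 22 in short days. The long-day bed nucleus lay above all 6 preoptic arrays, and the short-day bed nucleus array 5 lay among them. Between the nuclei the value was 0.39 ± 0.13, 1.31-fold, and did not pass (adjusted p = 0.187, limma). Without short-day array 5 it was 0.61 (adjusted p = 0.0186, limma), and without array 4 it was 0.17 (adjusted p = 0.630, limma).

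Short minus long days was -0.06 ± 0.17 for this Cnp probe set in the preoptic area and -0.06 ± 0.19 in the bed nucleus, where the 2 short-day arrays read 41 and 22. The other bright Cnp probe set, 1418980_a_at, read 21, 25 and 24 in the long-day bed nucleus and 31 and 29 in the short-day bed nucleus. These groups did not overlap, and the value was 0.37 ± 0.14 (adjusted p = 0.282, limma). It was 0.04 ± 0.09 between the nuclei. The 2 bright probe sets of Cnp thus gave unlike values in both comparisons. Neither passed, and the difference between them was not tested. The third, 1437341_x_at, had a mean of 17.4 and gave -0.17 ± 0.10 between the nuclei.

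Mag encodes an adhesion protein of the innermost myelin layer that faces the axon, and Mog one of the outermost layer. Mog, measured by 1448768_at, read 21, 37 and 26 in the long-day and 29, 29 and 25 in the short-day preoptic area. Its values in the bed nucleus were 32, 35 and 31 in long days and 40 and 28 in short days. The groups overlapped, and the value between the nuclei was 0.27 ± 0.13 (95% interval -0.004 to 0.54, adjusted p = 0.431, limma). It was 0.141 without short-day bed nucleus array 4, 0.398 without array 5 and 0.175 without long-day preoptic array 1. Mag, measured by 1460219_at, read 12 to 18 in the preoptic area and 14 to 19 in the bed nucleus. Its value between the nuclei was 0.21 ± 0.12, and its levels lay at or below the array median. This value was 0.124 without short-day bed nucleus array 4 and 0.133 without short-day preoptic array 6. For both genes and in both nuclei, short minus long days was between 0.02 and 0.12. In the bed nucleus the value of each gene turned negative without short-day array 4.

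Cldn11 encodes the claudin of the tight junctions that run through the myelin sheath. Its probe set, 1416003_at, was dim: it read 10, 12 and 14 in the long-day and 13, 12 and 10 in the short-day preoptic area. Bed nucleus arrays read 11, 14 and 12 in long days and both read 17 in short days. The short-day bed nucleus thus stood above all other arrays. Between the nuclei the value was 0.30 ± 0.11 (adjusted p = 0.250, limma), 0.05 in long days alone and 0.55 in short days alone. In the bed nucleus short minus long days was 0.47 ± 0.16 (adjusted p = 0.236, limma), and the day length effects of the nuclei differed by 0.51 ± 0.22 (adjusted p = 0.573, limma). The short-day arrays of the bed nucleus exceeded its long-day arrays by 3 to 6 intensity units, at levels below the array median of 19, and no alternative brought the short-day value past the threshold.

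Ugt8a encodes the transferase that makes galactosylceramide, the main glycolipid of myelin. Its bright probe set, 1419063_at, read 280, 370 and 296 in the long-day and 343, 308 and 284 in the short-day preoptic area. Values of the bed nucleus were 295, 422 and 343 in long days and 564 and 349 in short days. In short days the bed nucleus arrays lay above the preoptic ones, while in long days the groups overlapped. Between the nuclei the value was 0.34 ± 0.13 (adjusted p = 0.274, limma), with 0.163 without short-day bed nucleus array 4 and 0.51 without array 5. Short minus long days was 0.34 ± 0.19 in the bed nucleus (adjusted p = 0.472, limma) and -0.01 ± 0.17 in the preoptic area. Without short-day bed nucleus array 4, the first of these became -0.002. The second Ugt8a probe set, 1419064_a_at, had a mean of 17.4 and gave -0.03 between the nuclei.

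Olig1 encodes a transcription factor of the whole oligodendrocyte lineage, including precursors. Its probe set, 1416149_at, read 29, 26 and 26 in the long-day and 20, 26 and 26 in the short-day preoptic area. The bed nucleus gave 24, 21 and 25 in long days and 26 and 25 in short days. In long days the preoptic arrays lay above those of the bed nucleus, and in short days the groups overlapped. It was the only brightest probe set with a negative value between the nuclei (-0.06 ± 0.10, adjusted p = 0.877, limma).

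**Figure D2:**
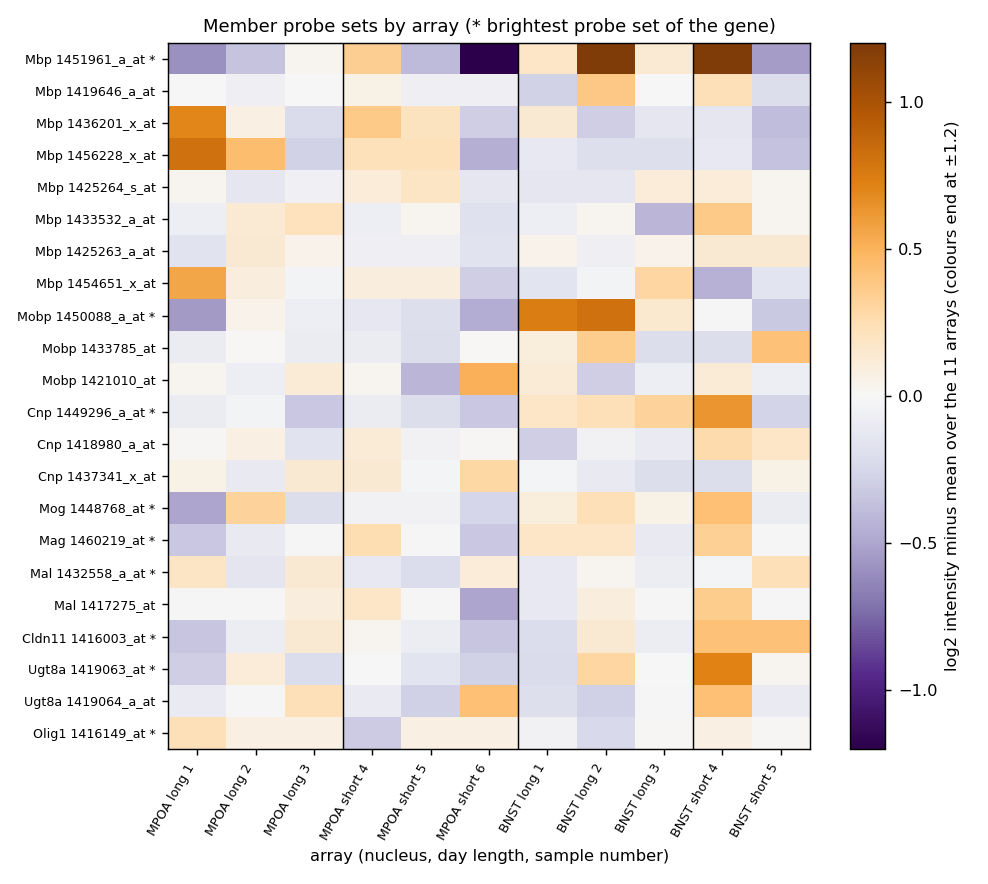
Each row is 1 of the 22 member probe sets and each column 1 array. The colour is the log2 intensity minus the mean of that probe set over the 11 arrays, and an asterisk marks the brightest probe set of a gene. The column of short-day bed nucleus array 4 holds the highest value of 6 of the 9 brightest probe sets, and that of short-day preoptic array 6 the lowest of 4.

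Between the nuclei, 8 of the 9 brightest probe sets had positive values (bed nucleus higher) and 1 a negative one, with a median of 0.30. Without short-day bed nucleus array 4 the median was 0.163, and over the other arrays left out in turn it was 0.236 to 0.398. The number of positive values was 7 of 9 without short-day bed nucleus array 5, long-day preoptic array 2 or short-day preoptic array 5, where Mal was also negative, and 8 of 9 without any other array. Over all 22 member probe sets 15 were positive and 7 negative, with a median of 0.04. Over all tested probe sets 50.1% were positive, with a median of 0. Of the 7 members under an unadjusted p of 0.05, 5 were higher in the bed nucleus and 2, both of Mbp, lower. No member had all bed nucleus arrays on 1 side of all preoptic arrays, against 1.47% of all probe sets. In long days alone, 4 of 22 had groups that did not overlap (18.2%, against 12.2% of all). Mbp, Mobp and Cnp were higher (6.69% of all) and Olig1 lower (5.5% of all) in the bed nucleus. In short days alone, 4 of 22 did not overlap (18.2%, against 19.4% of all). All 4 were higher in the bed nucleus, against 8.86% of all higher and 10.6% lower, and among them were Cldn11 and Ugt8a. The contrasts within 1 day length were chosen after the values were seen, and 0 members passed in either (0.128% and 0.354% of all probe sets did, limma). At an unadjusted p under 0.05 the count was 3 of 22 in each, or 13.6%, against 10.5% and 10.3% of all.

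Markers of other cells were measured beside these values. The mean log2 level of the 9 brightest member probe sets was 4.89 to 5.24 over the preoptic and 5.19 to 5.69 over the bed nucleus arrays. For 16 neuronal genes it was 6.49 to 6.66 and 6.25 to 6.73, and for 12 astrocyte genes 5.72 to 5.90 and 5.74 to 5.94. For 13 microglial genes it was 4.33 to 4.44 and 4.29 to 4.43, and for 13 vessel genes 4.99 to 5.15 and 4.95 to 5.19. For 7 ependymal and choroid plexus genes it was 4.26 to 4.41 and 4.17 to 4.63. For 3 Schwann cell genes, of the myelin of peripheral nerves, it was 4.46 to 4.72 and 4.67 to 4.89. No gene was at 0 on any array, and none of these marker genes passed in any comparison. Between the nuclei, 5 of 16 neuronal, 6 of 12 astrocyte and 5 of 13 microglial genes had positive values. So did 9 of 13 vessel, 5 of 7 ependymal and choroid plexus, and 2 of 3 Schwann cell genes. The closest to the threshold was Egr2, a transcription factor of Schwann cells that neurons also express, at 0.41 ± 0.10 (adjusted p = 0.0651, limma). For day length in the preoptic area the numbers higher in short days were 10, 6, 6, 3, 5 and 1 in the same order. In the bed nucleus they were 4, 4, 6, 5, 1 and 1. The medians there were -0.18 for neuronal and -0.27 for ependymal and choroid plexus genes. Short-day bed nucleus array 4, the highest in members at 5.69, had 6.40 for neuronal and 5.92 for astrocyte genes. Short-day preoptic array 6, the lowest at 4.89, had 6.57 and 5.72. The part of these cells in the member values was not tested.

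**Figure D3:**
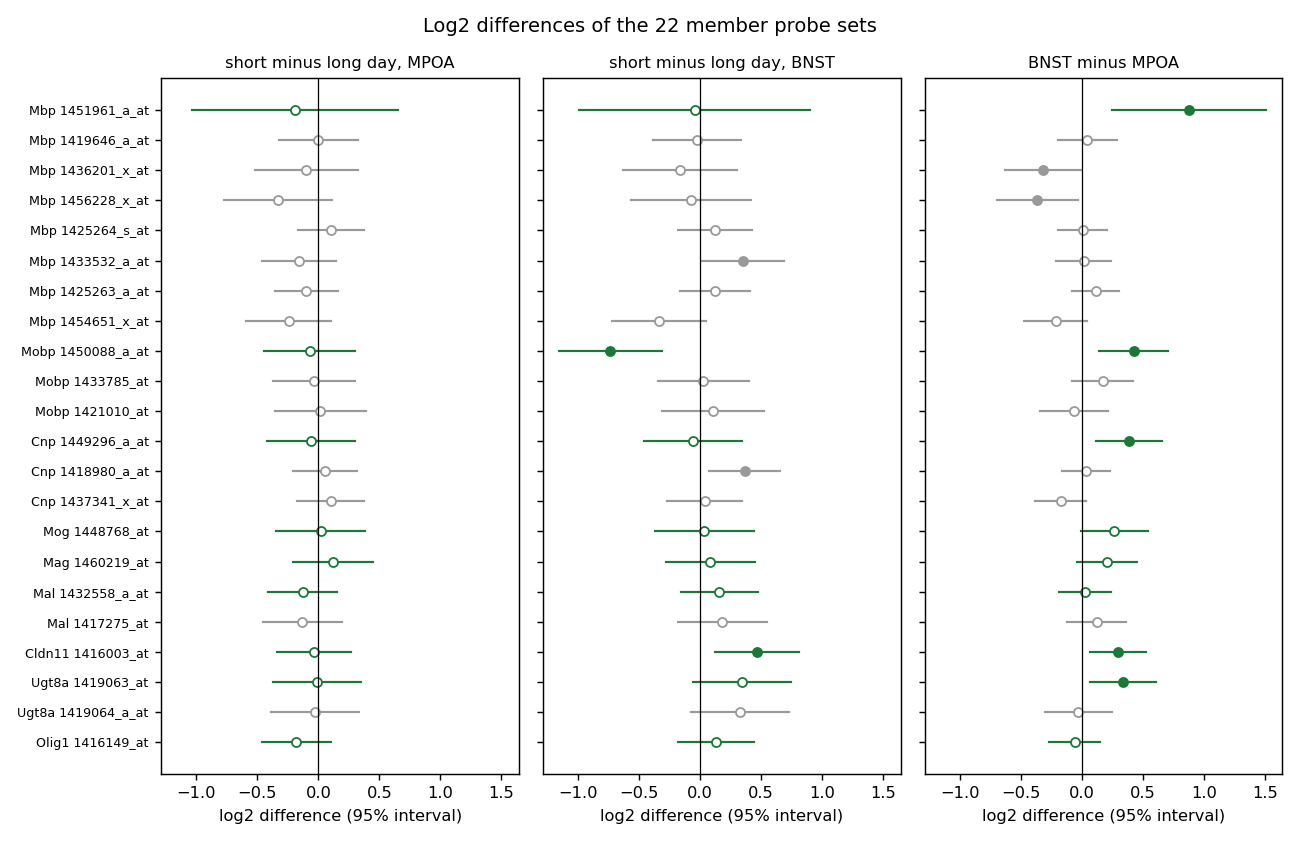
Log2 differences (x axis) of the 22 member probe sets (rows) with 95% intervals of the limma model, for short minus long days in each nucleus and for the bed nucleus minus the preoptic area. Green marks the brightest probe set of a gene and grey the others. Filled points have an unadjusted p under 0.05, and none passed after adjustment. The intervals of Mbp 1451961_a_at are the widest, reaching from -0.99 to 0.90 for day length in the bed nucleus.

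In the preoptic area 6 members were higher and 16 lower in short days, from -0.33 to 0.12, with a median of -0.05 (all probe sets: 50.2% higher, median 0). No member's groups were apart, against 5.19% of all probe sets, and the smallest unadjusted p was 0.136. In the bed nucleus 15 members were higher and 7 lower, with a median of 0.09, against 47.2% higher and a median of -0.015 over all. The groups did not overlap for 4 of 22 (18.2%, against 23.7% of all). Of these, Mobp 1450088_a_at was lower in short days (13.5% of all were), and Cldn11, Cnp 1418980_a_at and Mbp 1425263_a_at were higher (10.2% of all were). The last read 15, 14 and 15 against 16 and 16, a change of 1 or 2 units. The comparison of day length effects uses the same arrays as both of these and is not independent of them.

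The members varied from array to array within the groups. Short-day bed nucleus array 4 had the highest value of 6 of the 9 brightest probe sets, and array 5 of that group the highest of 2, with a tie for Cldn11 counted on both. Short-day preoptic array 6 had the lowest value of 4 and long-day preoptic array 1 of 5, ties again counted on each. Of the 36 pairs among the 9 brightest probe sets, 23 had a positive correlation over the 11 arrays. After adjustment over the 36 pairs, 4 passed with Pearson's r and 7 with Spearman's rho, of which 2 passed with both (permutation tests, 100000 resamples, two-sided). The permutations moved values over all 11 arrays whatever their group. A difference between groups that 2 genes share can therefore enter these p-values, and r around the group means was not tested.

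Mbp and Mag had r = 0.84 and rho = 0.85 over 11 arrays (adjusted permutation p = 0.0307 and 0.0427). Around the group means r was 0.86, within the 6 preoptic arrays 0.86, and without the 2 arrays farthest in Mbp 0.69. Mog and Ugt8a had r = 0.81 and rho = 0.79 (adjusted permutation p = 0.0307 and 0.0427). Their r was 0.81 around the group means, 0.92 within the preoptic arrays and 0.73 without the 2 arrays farthest in Mog. Mbp and Cnp had r = 0.80 (adjusted permutation p = 0.0307) and rho = 0.73 (0.0651), with r = 0.58 without the 2 farthest arrays. Their r was 0.68 around the group means and 0.38 within the preoptic arrays. Mbp and Ugt8a had r = 0.79 (adjusted permutation p = 0.0307) and rho = 0.64 (0.126), with r = 0.59 without the 2 farthest arrays. For this pair r was 0.81 around the group means and 0.52 within the preoptic arrays. The bed nucleus alone, with 5 arrays, was too small for a value of its own. The values of 2 genes on an array come from the same RNA and hybridisation.

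Mal and Olig1 had mostly negative correlations with the other 7 genes. Of the 15 pairs that include either of them 2 were positive, with r from -0.64 to 0.30, and all 21 pairs among the others were positive, from 0.13 to 0.84. This division was seen in the correlations and was not tested.

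**Figure D4:**
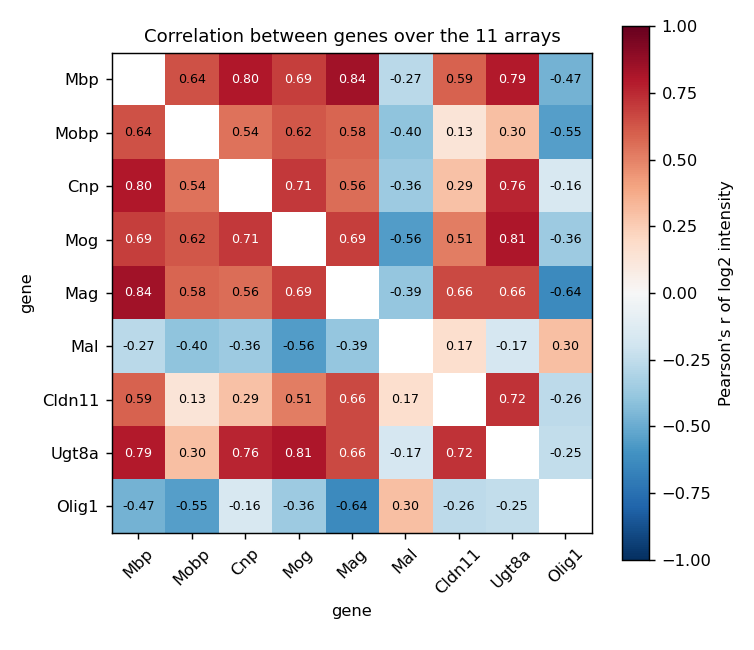
Pearson's r between the log2 intensities of the brightest probe sets of the 9 genes over the 11 arrays, one cell for each pair. Red cells are positive and blue cells negative. The rows of Mal and Olig1 are mostly blue, and the pair of Mbp and Mag has the highest value at 0.84.

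The probe sets of other genes whose log2 levels followed the mean standardised profile of the members most closely over the 11 arrays were taken from 10362 candidates above the array median. They were Art1 (r = 0.92), Fth1 (0.91), Evi2a (0.91), Slc6a8 (0.90), Fgfr2 (0.89), Arntl2 (0.88), Cryab (0.88) and Top2b (0.87). Of these, Fth1, Evi2a, Fgfr2 and Cryab are also in the lists of oligodendrocyte and myelination genes used here. Those lists were chosen with earlier results of these data known. The share of all candidates that they hold was not counted, so the overlap was not tested. The Fth1 and Cryab probe sets named are not the brightest of these genes, which are described below. Fth1 encodes the heavy chain of ferritin, the iron store of which oligodendrocytes hold much in the brain. Slc6a8 encodes the creatine transporter, Fgfr2 a receptor for fibroblast growth factors, and Cryab a small heat shock protein. These correlations describe 11 arrays and carry no test.

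Other genes of the lineage were taken from lists. Of 18 measured genes of myelin structure 12 were positive between the nuclei, as were 8 of 10 lipid enzymes, 8 of 12 genes of metabolism and iron, 4 of 9 transcription factors, 4 of 8 precursor genes and 8 of 16 signalling genes. The medians were 0.07, 0.08, 0.07, -0.03, -0.04 and -0.00, against 0.00 over all 12393 genes, of which 51.1% were positive. Of the 73 genes measured in these lists 1, Fth1, passed, which is 1.37%, beside 1.03% of all probe sets. The share is near that of all probe sets and says nothing particular of the lists. Its brightest probe set, 1427021_s_at, read 2167, 1578 and 2323 in the long-day and 2328, 1808 and 1540 in the short-day preoptic area. The bed nucleus gave 2771, 3235 and 2858 in long days and 3278 and 2539 in short days. All bed nucleus arrays lay above all preoptic arrays, and the value was 0.60 ± 0.13 (adjusted p = 0.0239, limma). The name ending marks a possible match to several transcripts.

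A further Fth1 probe set, 1448771_a_at, passed in the same direction at 0.43 ± 0.10 (adjusted p = 0.0432, limma). The direction held in all 17 alternatives for both probe sets, though the filter on dim probe sets, the other prior and the block could not turn it. The brightest was no longer past the threshold in 7 of them and the further one in 13. Leaving out any of the preoptic arrays long-day 2 and short-day 5, or the bed nucleus arrays long-day 1, long-day 2 and short-day 4, ended the call of the brightest, with adjusted p from 0.0539 to 0.162 (limma). For the further probe set the call ended without any 1 of the 11 arrays (adjusted p from 0.0560 to 0.230, limma).

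Genes of these lineage lists that came closest between the nuclei without passing were Nkain1, a membrane protein that interacts with the sodium pump (-0.45 ± 0.12, adjusted p = 0.0784, limma), and Cryab (0.66 ± 0.18, adjusted p = 0.0877, limma). Sox11, a transcription factor of immature neural cells, was at -0.38 ± 0.11 (adjusted p = 0.109, limma), and Fgfr2 at 0.315 ± 0.103 (adjusted p = 0.180, limma). Pdgfra, the receptor that marks oligodendrocyte precursors, read 1067 to 1223 over the preoptic and 873 to 1006 over the bed nucleus arrays. Its groups did not overlap, at -0.26 ± 0.09 (adjusted p = 0.199, limma). Cryab, on its brightest probe set 1434369_a_at, read 312, 466 and 359 in the long-day and 505, 511 and 230 in the short-day preoptic area. Its bed nucleus values were 437, 521 and 440 in long days and 995 and 623 in short days. Like Mbp, it was highest on bed nucleus array 4 and lowest on preoptic array 6.

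Between short and long days no list gene passed in either nucleus. In the preoptic area the genes higher and lower were 9 and 9 for myelin structure, 4 and 6 for lipid enzymes, 1 and 11 for metabolism and iron, 6 and 3 for transcription factors, 4 and 4 for precursors and 5 and 11 for signals. The median of the metabolism and iron list was -0.09, against 0.00 over all genes. In the bed nucleus they were 11 and 7, 5 and 5, 5 and 7, 3 and 6, 4 and 4, and 8 and 8 in the same order. Tcf7l2, a partner of beta-catenin in differentiating oligodendrocytes that is also found in thalamic neurons, read 48, 141 and 91 in the long-day bed nucleus and 42 and 36 in the short-day one. Its groups did not overlap, at -1.13 ± 0.31 (adjusted p = 0.144, limma).

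Other genes of the lineage lists with small p in the bed nucleus were Cryab (0.76 ± 0.27), Cd9, a tetraspanin (-0.48 ± 0.17), Lingo1 (-0.453 ± 0.158), Gal3st1, which sulphates galactosylceramide (-0.40 ± 0.15), and Sox11 (-0.68 ± 0.16). Their adjusted p lay between 0.106 and 0.259 (limma). Gal3st1 thus had the opposite sign to Ugt8a, the enzyme before it in the same pathway, and neither passed. The Ugt8a value was -0.002 without short-day bed nucleus array 4. In the preoptic area the closest of the lineage lists were Adamts4, a protease (-0.38 ± 0.14), and Nkain1 (0.41 ± 0.16), both with an adjusted p of 1 (limma).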

How the data were processed

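The authors deposited 1 table of probe set intensity values on a linear scale for 11 arrays, made with RMA version 3.4 per the submitters' processing notes. No source used here records further steps. The deposited intensity values are whole numbers with a median of 19 on every array, and 51.1% of all values are 19 or less. After 64 control probe sets were set aside, 22626 of 22690 were tested. The platform annotation gives 1 symbol for 20380, several for 691 and none for 1555.

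The log2 of the intensities was fitted with 4 group means (limma 3.58.1, lmFit then eBayes, R 4.3.3; all 11 arrays; 7 residual and 12.9 prior degrees of freedom). There were 4 comparisons, two-sided, with Benjamini-Hochberg adjustment over all probe sets and a threshold of 0.05. Values are log2 differences ± SE, and levels are mean ± SD. Group values with n of 2 or 3, and the number of arrays as a whole, limit the precision. The procedure was tested on simulated arrays.

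The members and 12 gene lists were chosen with earlier results of these data known. Named list genes are those that passed or had the 2 smallest p of a list in a comparison, and a selection of these is given. Gal, Esr1, Snap25 and the genes most like the members follow their own rule, the latter the 8 highest correlations. The labels do not tie arrays to named animals, so p-values measure the spread between these samples. Alternatives were another normalization, a filter on dim probe sets, another variance prior, a block on sample number and leaving out each array. No sequences were used.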

Additional observations from a re-analysis of the deposited data

How the results depend on the processing

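The alternatives were quantile normalization, leaving out dim probe sets (mean at or below 19), a trended and robust prior, the arrays of a nucleus alone, a block on the sample number, each array left out in turn and, chosen after seeing the data, the nucleus contrast within 1 day length. No member passed under any of them except between the nuclei without short-day bed nucleus array 5, where 2 did, so that leaving out arrays gave 0 to 2. Of 1364 member values under an alternative 1248 kept their sign, and 12 changed it by more than the residual SD. Many of these values could not change. The filter on dim probe sets, the other prior, the nucleus-alone fit and the block leave the group means as they were, or nearly so. A day length value also stays the same when an array of the other nucleus is left out. The count kept thus overstates how stable the values were. With the replicate block 244 probe sets passed between the nuclei against 233, and no other call of a member changed, so no call given here depends on it. The labels do not say whether samples with the same number come from the same animal, and the numbers were not taken as pairs. Samples with the same number in both nuclei had deviations from their group means that correlated between -0.03 and 0.07. With groups this small, that check cannot settle whether they share an animal. Of the 5 shared numbers only number 4 correlated best with its own number.

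Leaving out 1 array moved the counts over all probe sets from 0 to between 0 and 1 for day length in the preoptic area, from 10 to between 0 and 38 in the bed nucleus, from 0 to between 0 and 5 for the difference of these effects, and from 233 to between 70 and 224 between the nuclei. The 38 came without short-day preoptic array 6, and the 70 and the 0 in the bed nucleus without short-day bed nucleus array 5. Under quantile normalization 5 of 7 probe sets called for day length in the bed nucleus were higher, against 4 of 10. The arrays of the bed nucleus alone gave 0 in place of 10. Between the nuclei, long days alone gave 29 and short days alone 80. A lone remaining short-day bed nucleus array was assumed to vary like the other groups.

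Some values of day length in the bed nucleus changed sign, with a move of more than the residual SD, without 1 of its 2 short-day arrays. Smaller changes of sign, as for Mog and Mag, are not listed. Over the arrays left out, the listed values ranged from -1.04 to 0.95 for Mbp 1451961_a_at, -0.24 to 0.20 for Mbp 1419646_a_at, -0.28 to 0.34 for Mobp 1433785_at, -0.51 to 0.39 for Cnp 1449296_a_at and -0.002 to 0.69 for Ugt8a 1419063_at. For the difference of the day length effects the ranges were -0.85 to 1.14, -0.24 to 0.20, -0.25 to 0.38 (Mobp 1433785_at) and -0.45 to 0.45 (Cnp 1449296_a_at), the first pair for the same Mbp probe sets. Between the nuclei, long days alone gave -0.24 for Mbp 1433532_a_at and -0.12 for Cnp 1418980_a_at, and short days alone 0.10 for Olig1, each with the opposite sign to both day lengths together. The cause was not tested beyond the arrays left out. Probe sets near the median of 19 resolve no difference smaller than 1 unit.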
